A study of Homo sapiens with 6 samples.

Results

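The genes described here are 33 of homologous recombination, the Fanconi pathway and the checkpoint kinases. They were picked by name, with earlier results of these data known, out of 50868 genes in the deposited table, and all 33 were found and had enough reads to be tested. Homologous recombination copies an undamaged sister chromatid to mend broken DNA. The BRCA proteins and the recombinase paralogues assemble and remodel the recombinase filament, and helicases and nucleases open the DNA ends. The Fanconi pathway deals with crosslinks between the strands of DNA: a core complex attaches ubiquitin to the FANCD2-FANCI clamp, which then recruits nucleases and the recombination proteins. The kinases ATM and ATR sense breaks and stalled forks and act through CHEK2 and CHEK1. Many of these genes are transcribed most strongly in S phase of dividing cells.

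RNA was sequenced from CUTLL1, a cultured line of human T-cell leukaemia (acute lymphoblastic type), 48 h after lentiviral infection. One arm carried an shRNA against AURKB (shAURKB), the gene of the mitotic kinase Aurora B, while the control arm carried a hairpin labelled GFP (shGFP), with 3 libraries per arm given as biological replicates. Infected cells were selected with puromycin in both arms, and the labels do not say how many hairpins were used. By its title the study is about MYC protein and Aurora B in this leukaemia; the comparison here asks how repair gene mRNA differed when AURKB mRNA was reduced.

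Library totals ran from 10446722 to 11641019 counts with AURKB shRNA and from 10154187 to 11922979 counts with control shRNA. AURKB itself was lower in all shAURKB libraries, at 39.9 ± 3.93 CPM (counts scaled to library size) against 101 ± 5.10 CPM in shGFP (SD, n = 3 each; edgeR log2 fold change -1.35 ± 0.08 SE, adjusted p = 8.29e-05). All 17 T-lineage markers had reads, summing to 4361 to 4677 CPM in shAURKB and 4633 to 4832 CPM in shGFP. Single markers moved within that sum: of 16 tested, 5 were higher in shAURKB (NOTCH1, LCK, ZAP70, CD3E and CD3D) and 5 lower (NOTCH3, RAG1, RAG2, CD1B and CD1E), with NOTCH3 lowest at a log2 fold change of -2.40 ± 0.11 (SE; edgeR adjusted p = 3.87e-05). Their part in the results on repair genes was not tested. Of 13 fibroblast and epithelial markers, 5 had no read in any library (COL3A1, DCN, LUM, PDGFRB and THY1). The list summed to 1.98 to 2.58 CPM in shAURKB and 1.93 to 29.1 CPM in shGFP, the top value being shGFP replicate 1. Of 10 B-cell and myeloid markers, 5 had no read (MS4A1, PAX5, LYZ, MPO and CD33), and the list summed to 16.3 to 20.5 CPM in shAURKB and 21.3 to 23.7 CPM in shGFP. In bulk RNA, fewer cells of a type and less RNA per cell cannot be told apart.

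The repair and checkpoint genes changed little. Of the 33, 8 were lower with AURKB shRNA, 1 was higher and 24 were not called by edgeR's quasi-likelihood test, with Benjamini-Hochberg adjustment over 14818 genes and a threshold of 0.05. Across all tested genes 23.7% were called, 10.9% lower and 12.7% higher, while of the 33 genes 24.2% were lower and 3.03% higher. Upper-quartile scaling turned the split of all genes to 14.3% lower and 9.24% higher, with 9 of the 33 lower and 0 higher. The larger share of lower calls among the 33 was not kept with fewer libraries. With any 1 library left out, 2 or 3 of the 33 were lower (6.06% to 9.09%), against 7.28% to 7.62% of all genes, so the share was then near the background. In 21 of the 33 genes the log2 fold change was below 0, against 50.6% of tested genes. The median log2 fold change of the 33 was -0.09, against -0.0042 over all tested genes and 0.01 over the 11506 protein-coding genes tested. Upper-quartile scaling moved the first of these medians to -0.14 and that of all genes to -0.06. In 10 of the 33 genes (30.3%) every shAURKB library lay below every shGFP library, against 20.9% of all tested genes. Only CLSPN had every shAURKB library above every shGFP library, against 21.7% of tested genes. Arms without overlap in either direction made up 42.6% of tested genes.

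**Figure D1:**
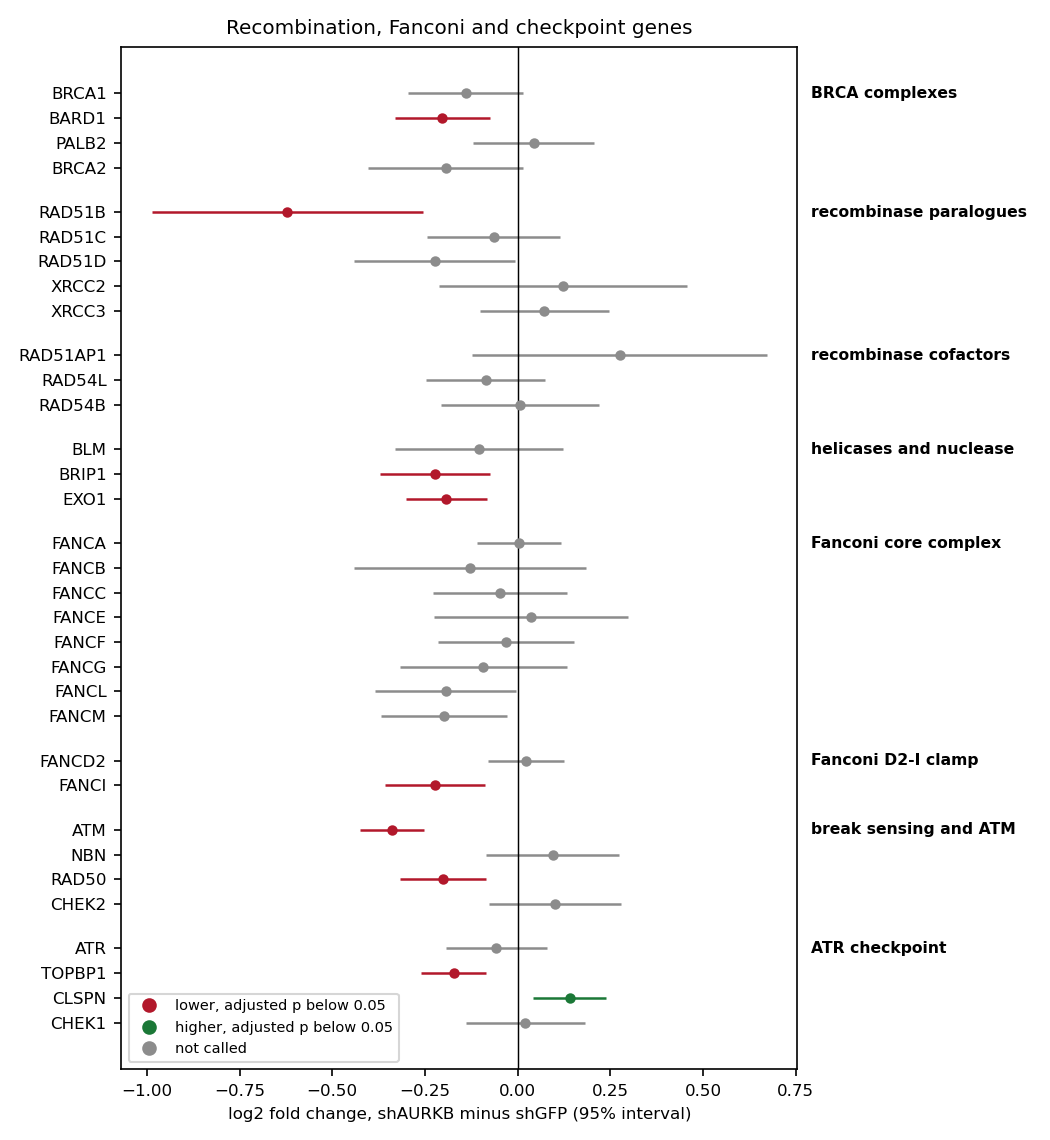
Log2 fold change of the 33 genes, shAURKB minus shGFP, with 95% intervals from the edgeR fit on 3 libraries each, grouped by role. The 8 red genes were called lower and the green one, CLSPN, higher; 24 grey genes were not called, and 23 of those intervals lie within 0.5 of 0.

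The lower calls were shallow. In the 8 lower genes, mRNA was reduced by 11.3% (TOPBP1) to 35.0% (RAD51B). The standard errors of the 33 estimates ran from 0.04 to 0.17 on the log2 scale, with a median of 0.08. For 23 of the 24 genes not called, the 95% interval excluded a change of 1.41-fold either way (0.5 on the log2 scale). The exception was RAD51AP1, whose interval reached 0.67. Summed over the 33 genes, mRNA came to 2925, 2772 and 2886 CPM in shAURKB replicates 1 to 3 and to 3072, 3017 and 3086 CPM in shGFP replicates 1 to 3. The shAURKB sums were all below the shGFP sums.

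**Figure D2:**
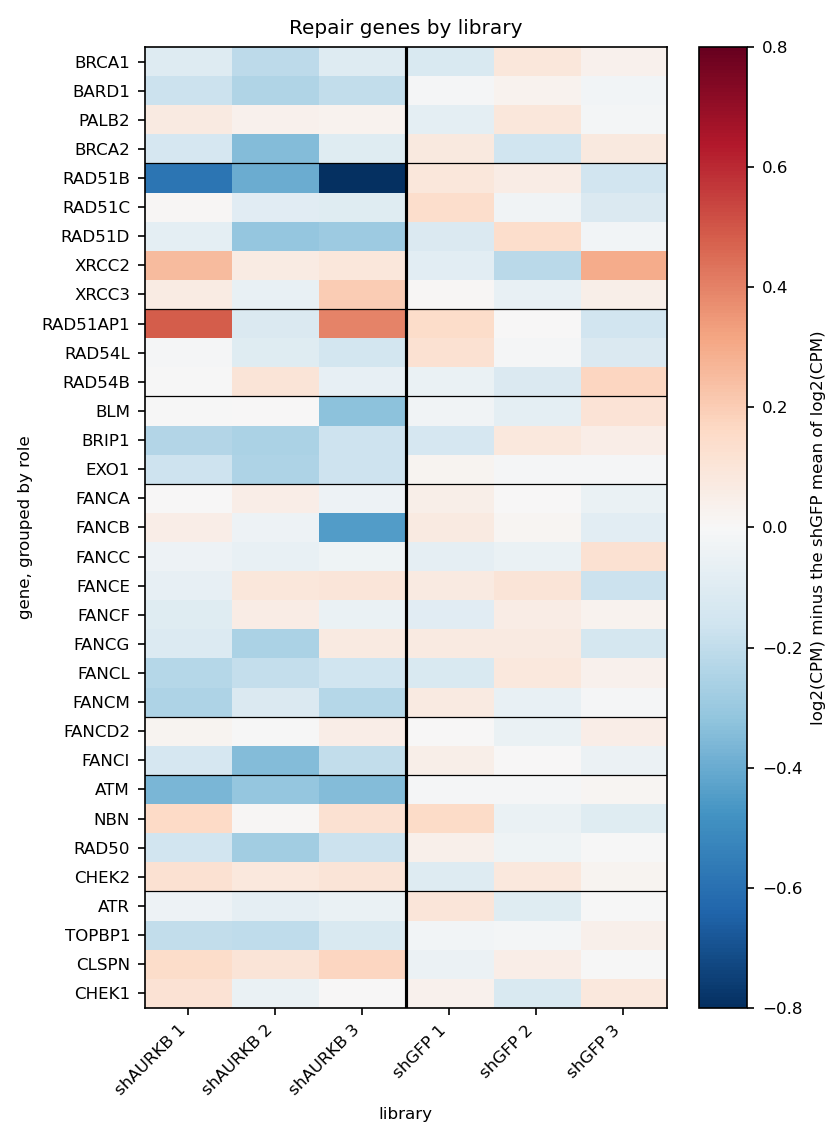
Log2 of TMM-scaled CPM in each library for the 33 genes (rows, grouped by role), minus the mean of the 3 shGFP libraries. ATM, RAD51B, TOPBP1, RAD50, EXO1, BARD1, FANCI and BRIP1 are below 0 (blue) in all 3 shAURKB libraries. So, some of them faintly, are BRCA1, BRCA2, RAD51D, RAD54L, FANCC, FANCL, FANCM and ATR, which were not called. RAD51AP1, XRCC2 and FANCB vary between libraries of the same arm.

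Break sensing by the MRN complex, of which NBN and RAD50 are subunits, activates ATM, which phosphorylates CHEK2. ATM (ENSG00000149311, GRCh38 chromosome 11, 108222484 to 108369102, plus strand) had the lowest adjusted p of the 33 genes. It stood at 151, 157 and 153 CPM in shAURKB replicates 1 to 3, against 193, 193 and 197 CPM in shGFP replicates 1 to 3. The arms were far apart relative to their spread, with an SD of 3.13 CPM in shAURKB and 1.95 CPM in shGFP. The log2 fold change was -0.34 ± 0.04 (SE; 95% interval -0.42 to -0.25; edgeR adjusted p = 0.000827), or 79.1% of the control level. This call held in all 13 alternative analyses, 6 of which left out a library, with adjusted p from 5.4e-06 to 0.00782.

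NPAT, whose product activates replication-dependent histone genes, starts beside ATM on the opposite strand, and the annotated spans overlap by 159 bases. NPAT (ENSG00000149308, chromosome 11, 108157215 to 108222642) had 66.3, 65.4 and 62.8 CPM in shAURKB against 79.3, 90.9 and 87.3 CPM in shGFP. It fell as well, with no overlap between arms and a log2 fold change of -0.41 ± 0.06 (SE; edgeR adjusted p = 0.00413; at most 0.0193 over the alternatives). C11orf65, which overlaps ATM further downstream on the opposite strand, had 9 to 13 reads per shAURKB library and 13 to 22 per shGFP library (log2 fold change -0.57 ± 0.33 SE, edgeR adjusted p = 0.253). ATM had 1613 to 2382 reads per library. No source used here states whether counting kept the strands apart, so reads from such overlaps are uncertain.

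The RefSeq promoter of ATM (GRCh38.p14, chr11:108222817-108223116, plus strand, 250 bases before to 50 after the first listed start) is shown because ATM and NPAT were lower together across this divergent start region. The annotated start of NPAT lies 175 bases before the first base shown, and the window lies within the span of ATM given above. Capitals mark a CCAAT box, read on the minus strand, and a TTTGAA match of the cell cycle homology region (CHR) type.
ATM: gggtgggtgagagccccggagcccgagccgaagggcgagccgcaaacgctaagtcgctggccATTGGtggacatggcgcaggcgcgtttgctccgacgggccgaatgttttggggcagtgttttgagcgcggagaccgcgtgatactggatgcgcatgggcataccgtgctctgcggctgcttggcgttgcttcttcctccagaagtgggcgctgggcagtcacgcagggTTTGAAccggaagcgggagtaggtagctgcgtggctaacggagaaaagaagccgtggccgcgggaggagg

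RAD50 (ENSG00000113522, chromosome 5, 132556019 to 132646344, plus strand), the coiled-coil ATPase of the MRN complex, was at 124, 113 and 122 CPM in shAURKB and at 141.7, 135 and 137 CPM in shGFP. The arms did not overlap, and the log2 fold change was -0.20 ± 0.05 (SE; edgeR adjusted p = 0.0238). The call was lost without shAURKB replicate 2 (adjusted p = 0.0719), shAURKB replicate 3 (0.0524), shGFP replicate 1 (0.0709) or shGFP replicate 3 (0.062). NBN, which tethers the complex to ATM, had 97.8, 88.1 and 95.3 CPM in shAURKB against 97.2, 84.5 and 81.7 CPM in shGFP. Its arms overlapped and its log2 fold change was 0.09 ± 0.08 (SE; edgeR adjusted p = 0.422). DECR1, which overlaps NBN by 1824 bases on the opposite strand, was lower (-0.52 ± 0.15 SE, edgeR adjusted p = 0.043). CHEK2, the effector kinase, had 30.6 to 31.5 CPM in shAURKB and 26.9 to 30.7 CPM in shGFP (log2 fold change 0.10 ± 0.08 SE, edgeR adjusted p = 0.388). Pseudogene copies of CHEK2 exist, and the 4 such rows in the table hold 0 reads, so its count is uncertain where the copies are near-identical.

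On the ATR side, TOPBP1 activates ATR at stalled forks and claspin, encoded by CLSPN, hands CHEK1 to it. TOPBP1 was lower and CLSPN higher. TOPBP1 (ENSG00000163781, chromosome 3, 133598175 to 133661893, minus strand) had 286, 284 and 301 CPM in shAURKB, below the 322, 324 and 337 CPM in shGFP. The log2 fold change was -0.17 ± 0.04 (SE; edgeR adjusted p = 0.0153). It missed the threshold without shAURKB replicate 1 (adjusted p = 0.0561), shAURKB replicate 2 (0.0585) or shGFP replicate 3 (0.0533). CLSPN (ENSG00000092853, chromosome 1, 35720218 to 35769967, minus strand) had 179, 174 and 182 CPM in shAURKB, above the 157, 168 and 162 CPM in shGFP. Its log2 fold change of 0.14 ± 0.04 (SE; edgeR adjusted p = 0.0485) sat at the threshold. That call was lost in 12 of 13 alternatives: with any 1 library left out the adjusted p was 0.0505 to 0.125, with upper-quartile scaling 0.188 and with DESeq2 0.142.

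Neither kinase of this branch was called. ATR had 94.6 to 96.4 CPM in shAURKB and 93.0 to 106 CPM in shGFP, and CHEK1 had 109 to 123 CPM in shAURKB and 104 to 120 CPM in shGFP. The log2 fold changes were -0.06 (95% interval -0.19 to 0.08) for ATR and 0.02 (95% interval -0.14 to 0.18) for CHEK1, with edgeR adjusted p of 0.525 and 0.862. The 3′ end of STT3A, a gene that rose (log2 fold change 0.38 ± 0.06 SE, edgeR adjusted p = 0.00326), overlaps the annotated span of CHEK1 by 80 bases on the same strand.

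**Figure D3:**
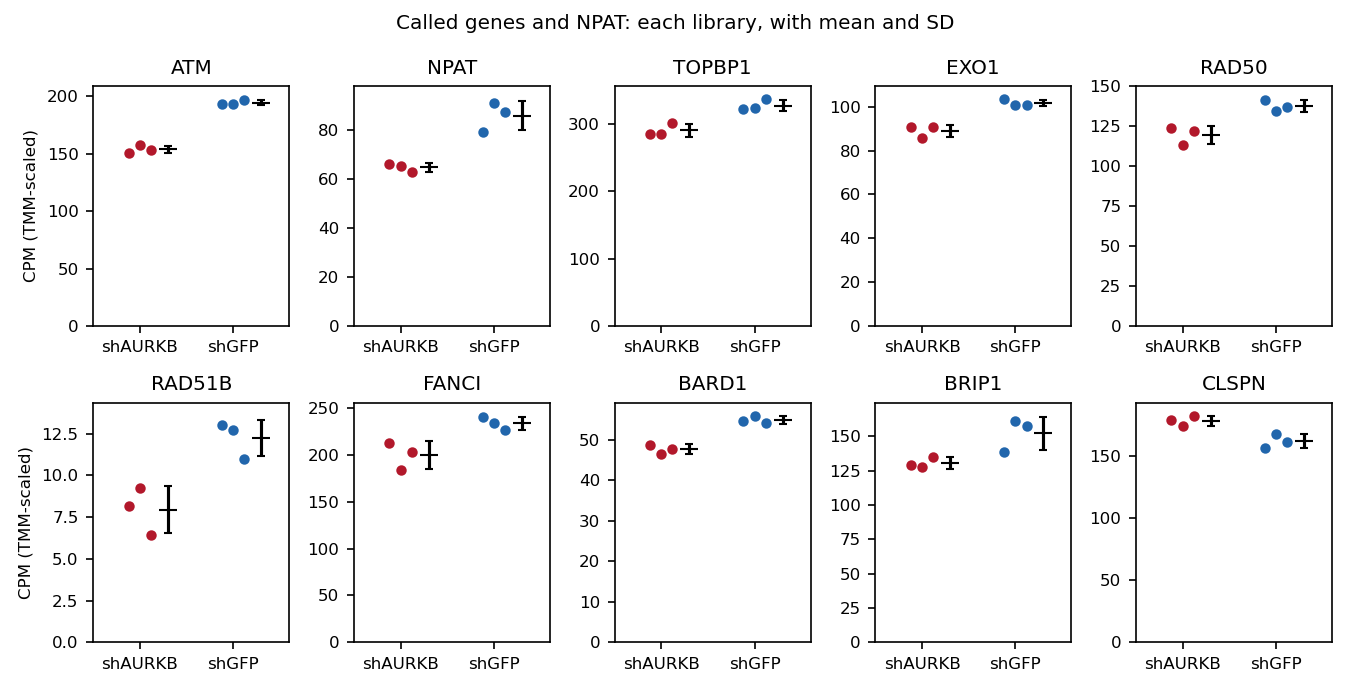
TMM-scaled CPM in each library (points) with the arm's mean and SD (black) for the 9 called genes and NPAT, shAURKB left and shGFP right. ATM shows a gap that is wide relative to the spread. NPAT varies more between libraries, with an SD of 5.97 CPM in shGFP. BRIP1 and CLSPN come close to touching.

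Of the 4 BRCA complex genes 1 was lower, BARD1, and 3 were not called. BRCA1 and BARD1 form a ubiquitin ligase heterodimer, PALB2 bridges BRCA1 to BRCA2, and BRCA2 loads the recombinase. BARD1 (ENSG00000138376, chromosome 2, 214725646 to 214809711, minus strand) had 48.8, 46.4 and 47.8 CPM in shAURKB against 54.5, 55.9 and 54.1 CPM in shGFP. The arms did not overlap and the log2 fold change was -0.20 ± 0.06 (SE; edgeR adjusted p = 0.0337), but with any 1 library left out the adjusted p was 0.0693 to 0.111, and DESeq2 gave 0.12. Its partner BRCA1 had 97.8, 90.8 and 97.8 CPM in shAURKB and 96.4, 112 and 108 CPM in shGFP, with shGFP replicate 1 inside the shAURKB range. Its log2 fold change was -0.14 ± 0.07 (SE, edgeR adjusted p = 0.171). RP11-242D8.1, which overlaps BRCA1 by 21878 bases on the same strand, was at -0.45 ± 0.14 (SE, edgeR adjusted p = 0.0537). Reads from that overlap are uncertain. BRCA2 had 153, 132 and 157 CPM in shAURKB and 177, 150 and 177 CPM in shGFP, so each arm held 1 low library (replicate 2 in both), and the value of -0.19 ± 0.09 (SE) was not called (edgeR adjusted p = 0.161). PALB2 had 37.6 to 38.8 CPM in shAURKB and 34.9 to 39.4 CPM in shGFP, a log2 fold change of 0.04 ± 0.07 (SE; edgeR adjusted p = 0.704; -0.01 with upper-quartile scaling).

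Among the recombinase paralogues, which stabilise the filament, RAD51B alone was called. RAD51B (ENSG00000182185, chromosome 14, 67819779 to 68730218, plus strand) showed the largest change and the lowest level of the 33 genes. It had 8.14, 9.26 and 6.45 CPM in shAURKB (93, 95 and 68 reads), against 13.0, 12.7 and 10.99 CPM in shGFP (138, 131 and 133 reads). The arms did not overlap, and the log2 fold change was -0.62 ± 0.16 (SE; 95% interval -0.99 to -0.26; edgeR adjusted p = 0.0259). The call was lost without shAURKB replicate 1 (adjusted p = 0.0629), shAURKB replicate 3 (0.0638, log2 fold change -0.49), shGFP replicate 1 (0.0747) or shGFP replicate 2 (0.0737). The other members of its complex were not called: RAD51C at -0.06 ± 0.08, RAD51D at -0.22 ± 0.09 and XRCC2 at 0.12 ± 0.14 (log2 fold change ± SE; edgeR adjusted p = 0.593, 0.125 and 0.573). XRCC3, which pairs with RAD51C in a separate complex, was at 0.07 ± 0.08 (edgeR adjusted p = 0.533) and overlaps KLC1, on the opposite strand, by 16641 bases. XRCC2 was uneven between controls, with 112, 98.3 and 100 CPM in shAURKB and 88.6, 80.9 and 116 CPM in shGFP. Without shGFP replicate 3 its value was 0.29 at an adjusted p of 0.0505.

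Of the recombinase cofactors, none was called. RAD51AP1, which helps the filament capture its partner DNA, had 54.8, 36.1 and 51.5 CPM in shAURKB and 43.4, 39.2 and 35.2 CPM in shGFP. With shAURKB replicate 2 inside the control range, the value of 0.27 ± 0.17 (log2 fold change ± SE) was not called (edgeR adjusted p = 0.282). Without that library it was 0.44 (adjusted p = 0.0316), which is the single alternative in which it was called. The motor genes RAD54L and RAD54B, whose products remodel DNA around the filament, were at -0.09 ± 0.07 and 0.01 ± 0.09 (log2 fold change ± SE; edgeR adjusted p = 0.414 and 0.97). LRRC41 overlaps RAD54L on the opposite strand and was lower in shAURKB (-0.21 ± 0.06 SE, edgeR adjusted p = 0.0457).

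Of the 3 genes that process DNA ends and unwind intermediates, 2 were lower and BLM was not called. EXO1 (ENSG00000174371, chromosome 1, 241847967 to 241895148, plus strand), the nuclease that extends resection, had 90.6, 85.7 and 90.6 CPM in shAURKB against 103, 101 and 101 CPM in shGFP. The libraries agreed closely within each arm, and the log2 fold change was -0.19 ± 0.05 (SE; edgeR adjusted p = 0.0232). With any 1 library left out the adjusted p was 0.0508 to 0.0765, with DESeq2 0.0637. BRIP1 (ENSG00000136492, chromosome 17, 61681266 to 61863521, minus strand), the helicase that binds BRCA1 and is also counted as a Fanconi protein, had 129, 127 and 135 CPM in shAURKB and 138, 161 and 157 CPM in shGFP. Its arms nearly met, at 135 CPM in shAURKB replicate 3 and 138 CPM in shGFP replicate 1. The log2 fold change was -0.22 ± 0.06 (SE; edgeR adjusted p = 0.0393). Without shGFP replicate 1 the adjusted p was 0.0106, and without any other single library it was 0.0654 to 0.12; DESeq2 gave 0.0561. BLM, the Bloom syndrome helicase, had 80.9, 81.3 and 64.8 CPM in shAURKB and 79.7, 76.8 and 87.3 CPM in shGFP. The lowest library was shAURKB replicate 3, and the log2 fold change was -0.10 ± 0.10 (SE; edgeR adjusted p = 0.49), or 0.00068 without that library.

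None of the 8 Fanconi core complex genes was called, with log2 fold changes from -0.20 (FANCM) to 0.04 (FANCE) and a median of -0.07. FANCA, FANCC and FANCF lay within 0.05 of 0 (0.0033, -0.05 and -0.03), and FANCB and FANCG were at -0.13 and -0.09. FANCL, the ubiquitin ligase subunit, had 24.9 to 26.1 CPM in shAURKB and 26.7 to 30.9 CPM in shGFP. FANCM, the translocase that anchors the complex to DNA, had 31.9 to 34.8 CPM in shAURKB and 36.2 to 39.7 CPM in shGFP. In both genes every shAURKB library was below every shGFP library, yet neither passed (log2 fold change -0.19 and -0.20, edgeR adjusted p = 0.127 and 0.0889). FANCM was called with upper-quartile scaling (adjusted p = 0.0413).

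The clamp that the core complex modifies had 1 subunit called of 2. FANCI (ENSG00000140525, chromosome 15, 89243949 to 89317261, plus strand) had 213, 184 and 203 CPM in shAURKB, against 241, 234 and 226 CPM in shGFP. The arms did not overlap and the log2 fold change was -0.22 ± 0.06 (SE; edgeR adjusted p = 0.0282). The call was lost without shAURKB replicate 2 (adjusted p = 0.0639), shAURKB replicate 3 (0.0652) or any 1 control (0.0823, 0.0724 and 0.0501 for shGFP replicates 1 to 3). The end of FANCI overlaps POLG, on the opposite strand, by 957 bases, and POLG was not called (0.07 ± 0.10 SE, edgeR adjusted p = 0.671). FANCD2 had 141, 139 and 144 CPM in shAURKB and 139, 134 and 144 CPM in shGFP. Its log2 fold change of 0.02 had a 95% interval of -0.08 to 0.13 (edgeR adjusted p = 0.745). The pseudogene row FANCD2P2 holds 0 reads, so the FANCD2 count is uncertain where the copy is near-identical. Whether the changes of FANCI and FANCD2 differ from each other was not tested.

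Levels per transcript length, as the deposited FPKM (fragments scaled to gene length and library size), spanned a wide range. TOPBP1 was highest, at 31.0 ± 0.91 FPKM in shAURKB and 36.2 ± 0.88 FPKM in shGFP, followed by CLSPN at 29.4 ± 0.62 FPKM in shAURKB and 27.7 ± 0.93 FPKM in shGFP (SD, n = 3 each). RAD54L came next, with 20.0 ± 1.017 FPKM in shAURKB and 22.0 ± 1.85 FPKM in shGFP, and FANCI had 16.5 ± 1.21 FPKM in shAURKB and 19.9 ± 0.63 FPKM in shGFP. Mean and SD of these genes overlapped in shGFP but not in shAURKB. BRIP1, EXO1, FANCD2, XRCC2 and RAD50 averaged 10.3 to 14.8 FPKM in shAURKB and 12.2 to 17.9 FPKM in shGFP. RAD51B was lowest, at 0.67 ± 0.12 FPKM in shAURKB and 1.07 ± 0.10 FPKM in shGFP. From FANCL down to BRCA1 and CHEK2 in the shGFP order, neighbours did not differ beyond their SDs in shGFP. ATM was at 4.64 ± 0.10 FPKM in shAURKB and 6.08 ± 0.06 FPKM in shGFP.

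**Figure D4:**
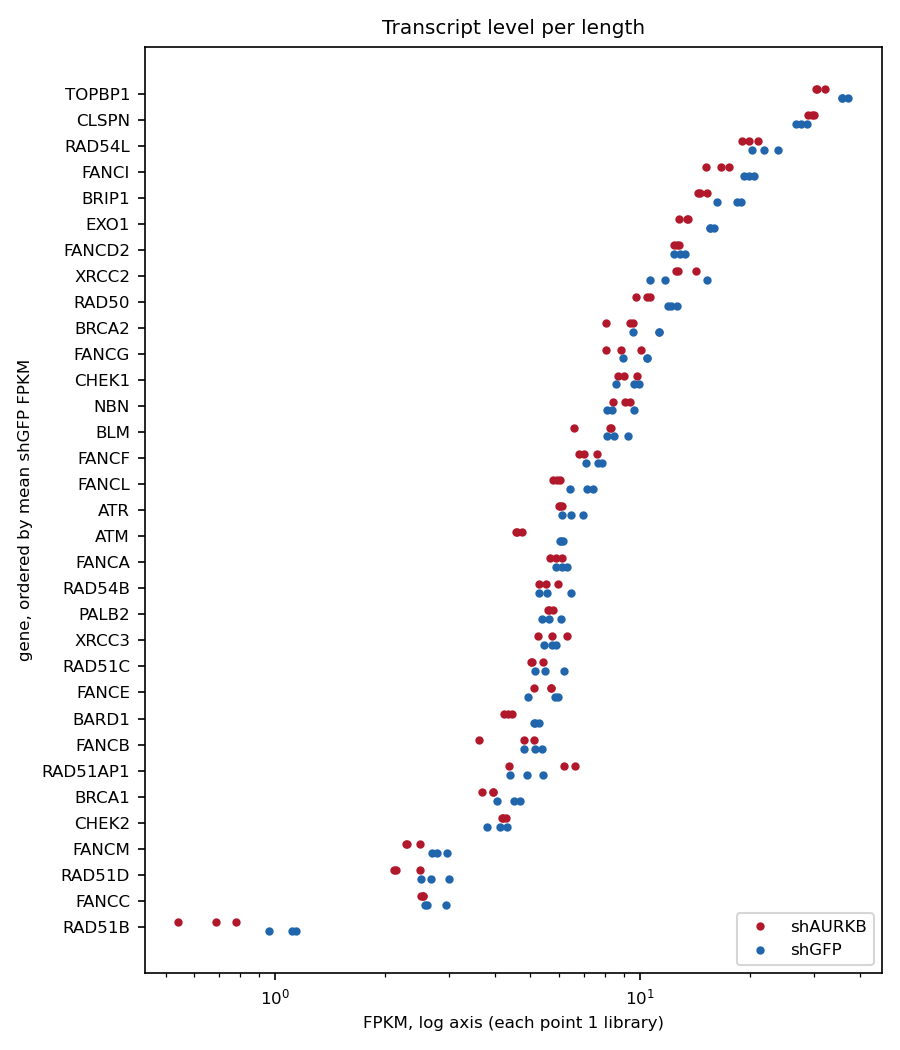
Deposited FPKM of the 33 genes in each library on a log axis, shAURKB above shGFP within each row, ordered by the shGFP mean. TOPBP1 and CLSPN lead at about 27.7 to 36.2 FPKM on average, and RAD51B is lowest.

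Gene span, the distance between annotated ends, was set against the change as a description across genes, which share the same 6 libraries. Longer genes tended to have lower log2 fold changes, with Spearman's rho of -0.45 over the 33 genes and -0.14 over 11506 protein-coding genes. With mean abundance in place of span, rho was -0.13 over the 33 genes and 0.28 over the protein-coding genes. Span and abundance were not separated. Of the 16 genes with a span above the median of 64.95 kb, 6 were lower and none higher (median log2 fold change -0.17). Of the other 17, 2 were lower and 1 higher (median -0.03). Over all tested genes of any span, 10.9% were lower and 12.7% higher, and shares by span were not computed for them. RAD51B, the longest at 910 kb, was the most reduced and also had the fewest reads, 68 to 138 per library.

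Promoters of TOPBP1 and EXO1 are shown because these are the lower genes with an E2F-type match among those searched; FANCI, also lower, and NBN and RAD54B were not searched. E2F factors drive S-phase genes. Exact matches to TTTCCCGC, TTTGGCGC or TTTCGCGC were searched on both strands from 250 bases before to 50 after the first listed start. They were found in 6 of 30 member promoters present in the table (20.0%: CLSPN, EXO1, FANCC, FANCD2, TOPBP1 and XRCC2), against 2.79% of all 27305 promoters and 4.68% of 9245 promoters of tested genes. Of the 6 genes with a match, TOPBP1 and EXO1 were lower, CLSPN was higher, and FANCC, FANCD2 and XRCC2 were not called. The other lower genes searched, ATM, BARD1, BRIP1, RAD50 and RAD51B, had no E2F-type match. TTTGAA occurred in 10.0% of the member promoters, 15.4% of all promoters and 9.72% of those of tested genes. CCAAT occurred in 43.3% of the member promoters, 35.7% of all promoters and 37.4% of those of tested genes. Capitals mark the match to TTTCGCGC. In TOPBP1 (GRCh38.p14, chr3:133661892-133662191, minus strand) it lies on the strand opposite to the one printed. In EXO1 (chr1:241847954-241848253, plus strand) it lies on the printed strand.
TOPBP1: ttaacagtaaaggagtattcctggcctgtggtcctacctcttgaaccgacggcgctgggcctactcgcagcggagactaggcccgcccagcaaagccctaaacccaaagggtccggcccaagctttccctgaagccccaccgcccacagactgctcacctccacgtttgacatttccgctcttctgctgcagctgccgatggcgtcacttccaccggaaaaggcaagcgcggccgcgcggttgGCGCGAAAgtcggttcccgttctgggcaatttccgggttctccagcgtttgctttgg
EXO1: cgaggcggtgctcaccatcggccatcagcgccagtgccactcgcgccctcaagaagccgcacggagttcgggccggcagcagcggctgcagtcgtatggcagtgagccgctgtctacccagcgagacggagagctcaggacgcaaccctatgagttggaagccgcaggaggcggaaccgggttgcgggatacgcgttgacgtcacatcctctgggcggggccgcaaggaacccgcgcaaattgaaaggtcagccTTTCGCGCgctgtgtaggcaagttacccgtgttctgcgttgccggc

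Other genes of the same pathways were called in both directions. Of 41 further recombination genes tested, 6 were lower and 2 higher (14.6% and 4.88%, median log2 fold change -0.08). Over all tested genes, 10.9% were lower and 12.7% higher. The largest called changes were those of RMI2, a subunit of the BLM dissolution complex, at -0.68 ± 0.08 (SE; edgeR adjusted p = 0.00139), and SFR1, a recombinase activator subunit, at -0.67 ± 0.13 (edgeR adjusted p = 0.00997). RMI2 stood at 22.1 CPM in shAURKB and 35.6 CPM in shGFP on average, and both calls held with each library left out. Of 22 further Fanconi genes, 1 was lower and 3 higher (4.55% and 13.6%, median 0.08). FAAP24, the partner of FANCM, was at -0.59 ± 0.14 (edgeR adjusted p = 0.0206), a call lost without shAURKB replicate 1 (0.0563), shAURKB replicate 3 (0.0641), shGFP replicate 1 (0.066) or shGFP replicate 3 (0.0594). STRA13 (CENPX), the small histone-fold partner in the same anchor, was at 0.50 ± 0.11 (edgeR adjusted p = 0.017; 0.0567 without shGFP replicate 1).

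Of 30 further checkpoint genes, 2 were lower and 2 higher (6.67% each way, median 0.07). Over all tested genes the shares were 10.9% lower and 12.7% higher. TIPIN, the partner of TIMELESS that brings claspin to the fork, rose by 0.43 ± 0.09 and the phosphatase gene CDC25A, a target of CHEK1, by 0.26 ± 0.05 (log2 fold change ± SE; edgeR adjusted p = 0.0124 and 0.00963). TIMELESS itself was lower, at -0.19 ± 0.04 (log2 fold change ± SE, edgeR adjusted p = 0.0166), so TIPIN and its partner moved in opposite directions. End joining is the route that needs no homologous template, and of its 12 tested genes 4 were higher and 1 lower (33.3% and 8.33%, median 0.11). APTX, which cleans DNA ends, rose by 0.53 ± 0.08 and NHEJ1, the XLF scaffold, by 0.46 ± 0.08 (edgeR adjusted p = 0.00297 and 0.00602). Both calls held with each library left out. Of 33 mismatch and excision repair genes, 5 were higher and 3 lower (15.2% and 9.09%, median 0.05). OGG1, the 8-oxoguanine glycosylase, was at -0.56 ± 0.14 and POLB, the base excision polymerase, at 0.43 ± 0.10 (edgeR adjusted p = 0.0274 and 0.0205). The OGG1 call was lost without shAURKB replicate 1 (0.0698), shAURKB replicate 2 (0.0855), shGFP replicate 1 (0.0789) or shGFP replicate 2 (0.0731). The POLB call was lost without shAURKB replicate 1 (0.0618), shAURKB replicate 3 (0.0596), shGFP replicate 2 (0.0571) or shGFP replicate 3 (0.0587).

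Cell cycle genes are given beside these counts because repair genes follow the cycle; their part in the result was not tested. Of 35 S phase markers, 4 were lower and 3 higher (11.4% and 8.57%, median -0.03). Of 50 G2 and mitosis markers, 9 were lower and 10 higher (18% and 20%, median -0.02). All tested genes stood at 10.9% lower and 12.7% higher. The called genes with the largest changes were TIPIN and SLBP, the histone mRNA binding protein gene, for S phase, and FAM64A (0.57 ± 0.12) and CBX5 (-0.47 ± 0.03), a heterochromatin protein gene, for mitosis (log2 fold change ± SE; edgeR adjusted p = 0.0107 and 9.25e-05). SLBP was at 0.32 ± 0.08 (edgeR adjusted p = 0.025), a call lost without shAURKB replicate 2 (0.0541) or any 1 control (0.0801, 0.0763 and 0.0727 for shGFP replicates 1 to 3). Of 20 E2F, RB and related regulator genes, 4 were lower and 2 higher (20% and 10%, median -0.06). RB1, the retinoblastoma brake on E2F, rose by 0.61 ± 0.04, at 316 CPM in shAURKB against 207 CPM in shGFP (edgeR adjusted p = 0.00014). E2F5, a repressor E2F, fell by 0.57 ± 0.11 (edgeR adjusted p = 0.00761).

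**Figure D5:**
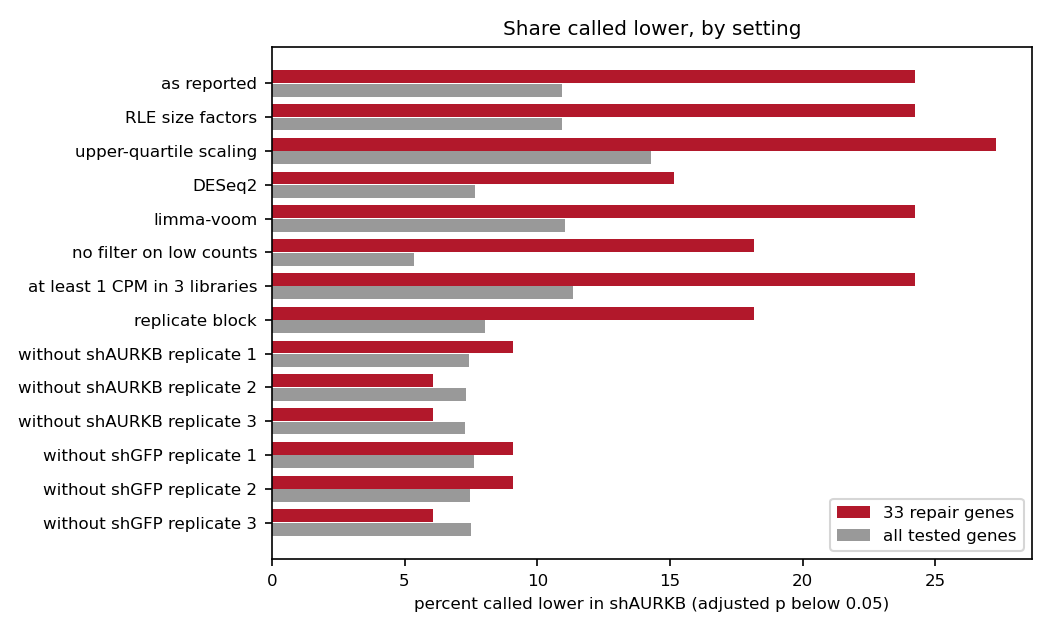
Percent of the 33 genes (red) and of all tested genes (grey) called lower in shAURKB, for the analysis as reported and each of 13 alternatives. The share of the 33 is 24.2% as reported and 6.06% to 9.09% with any 1 library left out, beside 7.28% to 7.62% of all genes.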

How the data were processed

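The authors deposited whole-number counts and FPKM per Ensembl gene for 50868 genes in 6 libraries. HISAT2 2.0.4, StringTie 1.3.0 and edgeR on GRCh38 (hg38) are named per the submitters' processing notes, without their roles; no source used here states the strand setting or how multi-mapped reads were handled. The deposited FPKM follow from the counts with a single length for each gene and a single depth for each library (deviating by a relative 0.000493 at most) and were used for levels alone. Groups came from the sample titles. Counts were filtered by filterByExpr (minimum count 10, minimum total 15), leaving 14818 genes, scaled by TMM and compared with the robust quasi-likelihood test of edgeR 4.0.16 (R 4.3.3), arm as single term, two-sided. CPM are TMM-scaled, except marker sums. Intervals are at 95%. Replicates differed beyond sampling noise (chi-square per degree of freedom 6.33 to 7.27). Of the 33 spans, 28 are identical in GENCODE release 29, which gave strands. RefSeq promoters (GRCh38.p14) matched 30 of the 33 genes. The other analyses used DESeq2 1.42.0, voom from limma 3.58.1, RLE scaling, upper-quartile scaling, no filter, at least 1 CPM in 3 libraries, a replicate block and each library left out. Members, lists and the naming rule were all chosen with earlier results of these data known. The rule names AURKB, all 33 genes, the 2 called genes with the largest change per further list and genes overlapping a called member; STT3A, LRRC41, DECR1, KLC1 and the T-lineage markers were added after values were seen.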

Additional observations from a re-analysis of the deposited data

How the results depend on the processing

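The fall of AURKB held under all 13 alternatives (log2 fold change -1.42 to -1.28 with each library left out), and of the 33 genes ATM alone kept its call in all. Lower calls numbered 5 with DESeq2 (15.2%, against 7.64% of all genes), 6 with no filter (18.2%, against 5.37%) and 2 to 3 with each library left out, against 8. The higher call (CLSPN) gave 0 with upper-quartile scaling, DESeq2, limma-voom, no filter, the 1 CPM filter and the replicate block, and 0 to 1 with each library left out; the 1 was RAD51AP1. The median of the 33 was -0.14 with upper-quartile scaling, where the median of all genes was -0.06, and -0.12 to -0.05 with each library left out. In the further lists (236 genes, 30 lower), 47 were lower with upper-quartile scaling, 19 with DESeq2, 19 with the block and 15 to 24 with each library left out. Over all tested genes 10.9% were lower as reported, 14.3% with upper-quartile scaling, 7.64% with DESeq2 and 8.04% with the block. With each library left out that share was 7.28% to 7.62%. Leaving out a library means fewer samples; beyond that the cause was not tested.

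Signs turned in 22 of the values computed for 11 of the 33 genes, none of them called. With upper-quartile scaling PALB2 was at -0.01, RAD54B -0.05, FANCA -0.05, FANCE -0.02, FANCD2 -0.03 and CHEK1 -0.03, and FANCA was at -0.0019 with the 1 CPM filter. With each library left out the ranges were -0.12 to 0.01 for RAD51C, -0.05 to 0.10 for RAD54B, -0.15 to 0.00068 for BLM, -0.02 to 0.03 for FANCA, -0.23 to 0.01 for FANCB, -0.08 to 0.02 for FANCC, -0.04 to 0.09 for FANCE, -0.07 to 0.01 for FANCF, -0.00015 to 0.05 for FANCD2 and -0.04 to 0.07 for CHEK1; POLG ran from -0.02 to 0.16.

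The shared replicate numbers did not pair the libraries: same-numbered deviations correlated at -0.07, -0.07 and -0.03, and 0 of 3 numbers gave the highest correlation. The replicate block left 6 of the 33 lower (BRCA2 gained; BARD1, BRIP1 and EXO1 lost), with 1192 genes lower and 1483 higher among all tested, against 1621 and 1886. Upper-quartile scaling gave 2115 lower and 1369 higher. Depth was 68 to 4073 reads per library for each of the 33 genes, with RAD51B the shallowest.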
